A study of Homo sapiens with 4 samples.

Results

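The genes described are the human ZNF genes, named ZNF plus a number, that were detected on every array of a TIA1 RNA immunoprecipitation experiment. They were selected on the scanner's detection flags: a probe for an mRNA accession was kept where at least 0.5 of its spots were flagged well above background on each of the 4 arrays. This left 141 of 674 ZNF probes and 132 of 482 ZNF genes, among 8307 mRNA genes detected in the same way of 18191 on the array. Ribonucleoprotein complexes were precipitated with rabbit anti-TIA1 antibody from cytoplasmic lysates of KYSE180, an established human esophageal squamous cell carcinoma line, with no further treatment named (TIA1 RIP, n = 2 arrays). Total RNA of the same line served as input (n = 2 arrays), and the sources do not state whether it came from the cytoplasmic lysate or from whole cells. Each array was labelled with Cy3 from 0.2 µg of RNA. The labels do not say that the replicates were separate cultures, so p-values measure only the spread between these samples, which may be technical, and the precision is limited by the 4 arrays.

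Most ZNF proteins are C2H2 zinc finger transcription factors, in which a pair of cysteines and a pair of histidines hold a zinc ion and successive fingers read DNA. Many carry a KRAB box, which recruits the co-repressor TRIM28 and, through it, the histone methyltransferase SETDB1, and is known for silencing transposable elements. Many of the genes lie in clusters on chromosome 19, and 49 of the 132 detected here did. TIA1 is an RNA-binding protein of the cytoplasm and nucleus that binds U-rich stretches of RNA.

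As TIA1 binds U-rich RNA, the U-richest stretch of the annotated 3′ untranslated region is shown for the 4 ZNF genes with the highest and the 4 with the lowest ratio (TIA1 RIP over input) among those on 1 side of all genes in every pair of arrays. Each is 30 bases of the transcribed strand, 5′ to 3′, from GRCh37, written as DNA, with runs of at least 4 T in capitals.
ZNF830, chr17:33290131-33290160 (+): tttgTTTTcttgtttctttggTTTTTgtat
ZNF655, chr7:99172004-99172033 (+): cgtttaTTTTTacTTTTTTattataaTTTT
ZNF24, chr18:32915239-32915268 (-): TTTTgtttgggtcTTTTTctctttgtggct
ZNF362, chr1:33764933-33764962 (+): ctgTTTTTTTTTTTTTcgTTTTTTTTTTTT
ZNF467, chr7:149461469-149461498 (-): agtggttatttatgtacttaaagtttcatt
ZNF497, chr19:58866884-58866913 (-): taggtctgtttcatgggacTTTTcTTTTTT
ZNF205, chr16:3170486-3170515 (+): ggcactctgcgaattaaaggccttggactt
ZNF367, chr9:99148500-99148529 (-): taatagTTTTTTcataaacaTTTTTTattt

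The windows of the 4 highest genes held 22, 21, 19 and 26 T, and those of the 4 lowest held 15, 17, 8 and 18 T, in the order printed. The genes were picked for their ratios, so this is a description of 8 sequences. Their 3′ untranslated regions ran from 192 bases (ZNF205) to 5005 bases (ZNF24), and a longer one offers more windows to choose from. Over all detected ZNF genes the U-richest window held a median of 17 T, against 18 over all detected genes. A run of TTTTT on the transcribed strand was present in the 3′ untranslated region of 72.0% of the ZNF genes and of 73.6% of all detected genes. The match is of letters only and no binding site was measured.

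Detection of the ZNF genes depended on 1 array. Of the 674 ZNF probes, 377 and 363 were well above background on the TIA1 RIP arrays and 420 on total RNA 1, but 152 on total RNA 2. The second total RNA array was the dimmest: its 75th percentile of signal was 69.9, against 714 on total RNA 1 and 1514 and 1271 on the TIA1 RIP arrays. The share of probes detected on all 4 arrays was 20.9% for ZNF genes and 40.9% for mRNA probes as a whole. The dimmest detected gene there was ZNF695, with a signal of 34.9, and the brightest ZNF probe that was not detected there, for ZNF703, had 39.4. A further 187 ZNF probes were detected on the other 3 arrays alone, and their median log2 difference of TIA1 RIP from total RNA 1 was -0.31, against 0.06 for the 4112 mRNA probes of that kind. The squamous markers KRT5, KRT14, TP63 and SOX2 were detected on all 4 arrays. Of the markers of other cells, no probe of PECAM1 was detected on any array, VIM was detected on total RNA 1 alone, COL1A1 on 3 arrays, and 1 of 4 PTPRC probes on each array.

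Ratios were taken as differences of log2 signals between TIA1 RIP and total RNA after the 75th percentile of each array had been subtracted, and are given relative to the median of all 8307 genes. Equal amounts of RNA were labelled, so the values are relative within an array, and amounts of RNA per cell were not measured. The ZNF genes lay on the low side. Their median was -0.34 on the means of the arrays, with 84 of 132 genes below the median of all genes. Against total RNA 1 the median was -0.42 with 94 genes below, and against total RNA 2 it was -0.36 with 79 below. In the 4 pairs of arrays it was -0.30, -0.50, -0.26 and -0.42. The middle of the distribution ran from -0.98 to 0.22, and single genes from -4.98 to 1.97.

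**Figure D1:**
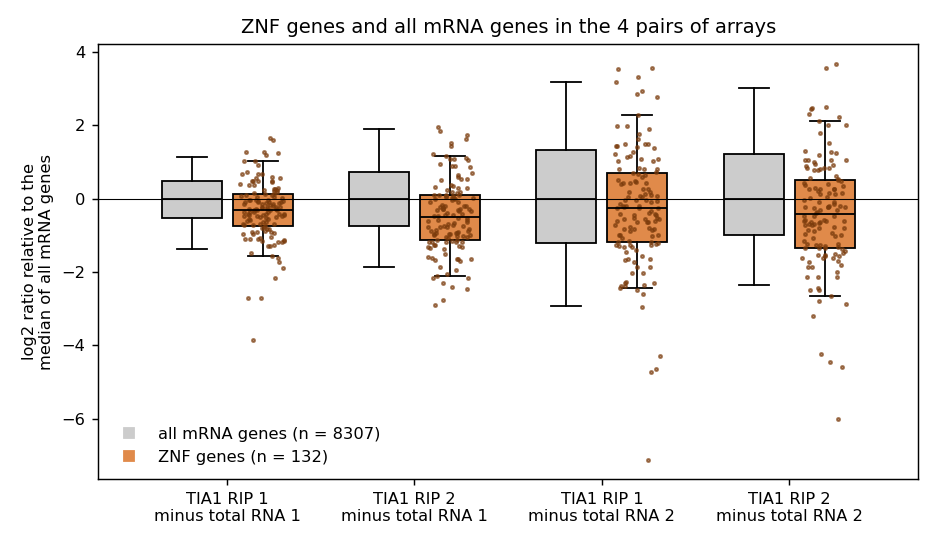
Log2 ratio (TIA1 RIP over total RNA) relative to the median of all mRNA genes (y axis) in each pair of arrays (x axis), for all 8307 detected mRNA genes (grey) and the 132 ZNF genes (orange, with a point per gene). Boxes span the quartiles, lines are medians and whiskers run from percentile 5 to percentile 95; the ZNF medians lie between -0.26 and -0.50.

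No gene passed the test. By limma with Benjamini-Hochberg adjustment over all genes, 0 of 132 ZNF genes and 0 of 8307 genes (0.0%) had an adjusted p under 0.05, and the lowest adjusted p was 0.685. At an unadjusted p under 0.05, 11 ZNF genes (8.33%) were lower in TIA1 RIP, against 5.09% of all genes, and 0 were higher, against 1.22%. In counts of direction, 50 ZNF genes (37.9%) lay below the median of all genes in all 4 pairs of arrays, against 22.4% of all genes, and 11 (8.33%) lay above it, against 22.1%. The 4 pairs share arrays and are not independent. The arrays of a group differed more for total RNA: over the 132 genes the SD of the log2 difference was 1.52 between the total RNA arrays (r = 0.72) and 0.60 between the TIA1 RIP arrays (r = 0.94), a description over genes, which are not replicates.

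The study screened for mRNAs by their enrichment relative to GAPDH, the glycolytic enzyme used as a transcript that TIA1 does not target. It required over 2.5-fold by both arrays and sequencing, and only the arrays are counted here. GAPDH itself was low on this scale, at 6.49 and 6.69 in TIA1 RIP, against 7.67 and 9.63 in total RNA, a log2 difference of -2.06 ± 0.87 (SE, adjusted p = 0.685 by limma). On the means, 74 ZNF genes (56.1%) exceeded 2.5-fold over GAPDH, against 65.8% of all genes. In all 4 pairs 13 did (9.85%), against 24.5%. Against total RNA 1 alone the count was 27 (20.5%), against 40.9% of genes, and against total RNA 2 alone it was 89 (67.4%), against 73.1%. The ZNF genes were thus a smaller share than all genes by each of these counts, though the counts themselves moved with the total RNA array. The 13 were ZNF213, ZNF362, ZNF385A, ZNF395, ZNF414, ZNF418, ZNF488, ZNF580, ZNF695, ZNF703, ZNF771, ZNF821 and ZNF830. Among them, ZNF385A was at 7.40, 7.22, 7.18 and 7.01-fold over GAPDH in the 4 pairs, and ZNF362 at 7.05, 7.71, 7.17 and 7.84-fold. ZNF695 and ZNF830 were near the detection limit on total RNA 2. ZNF703 was read from 1 mRNA probe, and another of its probes was not detected on total RNA 2.

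ZNF467, a C2H2 protein with 12 fingers found, had the lowest ratio. Only 1 of its 2 mRNA probes was detected on all 4 arrays. Its scaled log2 signals were 0.63 and 1.70 in TIA1 RIP, against 4.43 and 8.46 in total RNA. Both TIA1 RIP values were below both total RNA values, and the total RNA values stood far apart. The low genes were chosen as below all genes in every pair. The median of all genes was 0.04 and 0.03 against total RNA 1, and -0.72 and -0.75 against total RNA 2. That order of the groups thus nearly follows from the choice. The log2 difference was -5.28 ± 1.29 (SE), and -4.98 relative to all genes, with an adjusted p of 0.685 by limma. With both probes averaged and no detection filter, the ratio of ZNF467 relative to all genes was -2.61.

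ZNF497 had -1.94 and -1.70 in TIA1 RIP, against 0.74 and 3.51 in total RNA, a difference of -3.94 ± 1.0 (SE, adjusted p = 0.685 by limma). Its 2 probes differed in size, at -6.06 and -1.21 on the log2 scale. ZNF205, a KRAB protein, had -0.17 and -0.15 against 1.67 and 5.19, a difference of -3.59 ± 1.15 (SE). As the choice of low genes nearly requires, the groups did not overlap for either gene. For both, the second total RNA array was the higher one. ZNF367 had -3.05 and -3.03 against -2.74 and 1.96, so that its low ratio rested on total RNA 2: relative to all genes it was -0.35 against total RNA 1 and -4.26 against total RNA 2. These values came from 1 of its 2 mRNA probes. With both averaged and no detection filter, its ratio on the means moved from -2.35 to -0.991.

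The remaining 4 genes at the low end also stood lower in TIA1 RIP on both arrays. ZNF646, with 30 fingers found, had 0.48 and 0.17 against 1.72 and 3.78, on 1 of its 3 mRNA probes. With all 3 averaged and no detection filter, its ratio relative to all genes moved from -2.12 to -0.435. ZNF865 had 7.43 and 7.57 against 8.68 and 11.10, also on 1 of 3 probes, and its ratio was -2.24 with no filter. ZNF593, known for a part in ribosome biogenesis, had 3.08 and 2.04 against 4.16 and 5.43. These groups did not overlap, which again nearly follows from the choice of low genes. ZNF777, a KRAB protein, had -0.20 and -1.33 against 0.93 and 1.85, and was nearly equal relative to all genes at -1.74 against total RNA 1 and -1.87 against total RNA 2.

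At the other end, ZNF830 had 1.69 and 1.90 in TIA1 RIP, against 1.18 and -0.92 in total RNA, a log2 difference of 1.66 ± 0.89 (SE, adjusted p = 0.685 by limma). Its total RNA 2 value was near the detection limit, as an undetected ZNF probe on that array stood at -0.83. Relative to all genes ZNF830 was 0.57 against total RNA 1 and 3.46 against total RNA 2. ZNF655, read from 1 of its 2 mRNA probes, had 3.57 and 2.5 against 2.24 and 0.75, a difference of 1.54 ± 0.85 (SE). ZNF24, a transcriptional repressor, had 2.12 and 2.03 against 1.72 and 0.56. For these genes both TIA1 RIP values were above both total RNA values, and the gap to total RNA 1 was the smaller one. The order against total RNA 1 follows from the choice of high genes, as the median of all genes against that array was 0.04 and 0.03.

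ZNF362 and ZNF385A, which is known to bind RNA as well as DNA, showed the reverse order. ZNF362 had 2.67 and 3.0 against 1.03 and 2.97, and ZNF385A had 3.94 and 4.11 against 2.23 and 4.24, so the groups overlapped on the scaled values and the genes stood above all genes in each pair only after the shift of the median was taken off. Relative to all genes they were 1.76 and 1.75 against total RNA 1, and 0.61 and 0.53 against total RNA 2. ZNF695 (-0.89 and -0.52 against -1.43 and -1.0), ZNF317 (1.42 and 0.95 against 0.91 and 0.65) and ZNF384 (1.30 and 1.06 against 0.97 and 0.81) had the smallest excess of these 8, from 0.59 to 0.82 relative to all genes. ZNF695, read from 1 of its 3 mRNA probes, was the dimmest detected ZNF gene on total RNA 2.

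**Figure D2:**
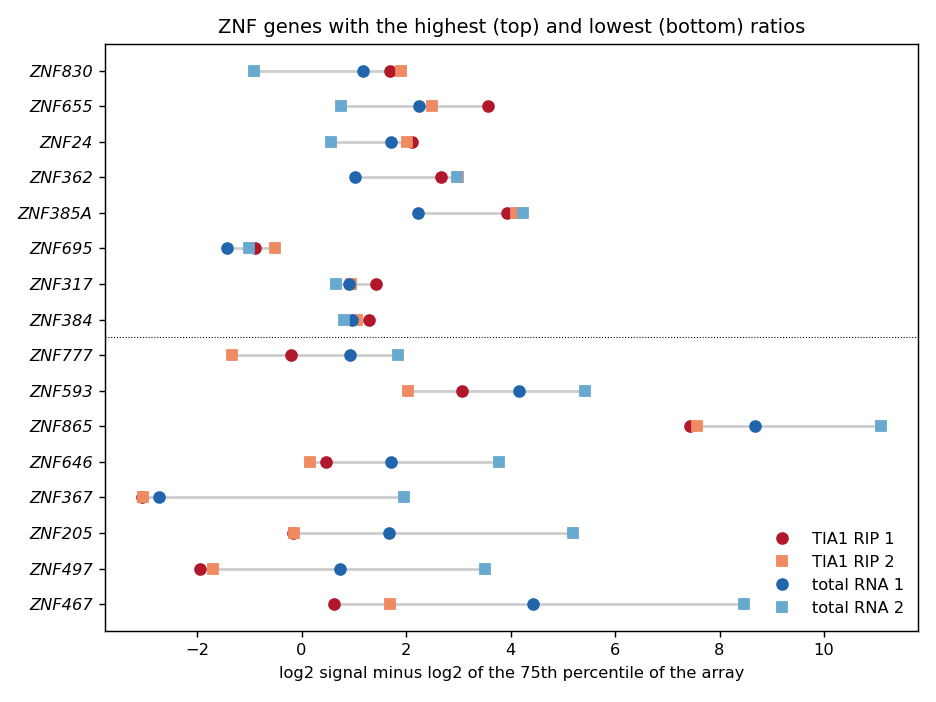
Scaled log2 signal (x axis) of the 8 ZNF genes with the highest and the 8 with the lowest ratio among genes on 1 side of all genes in every pair (y axis), a point per array. For the 8 low genes both TIA1 RIP points lie left of both total RNA points, as their choice nearly requires. For ZNF362 and ZNF385A at the top the groups overlap.

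**Figure D3:**
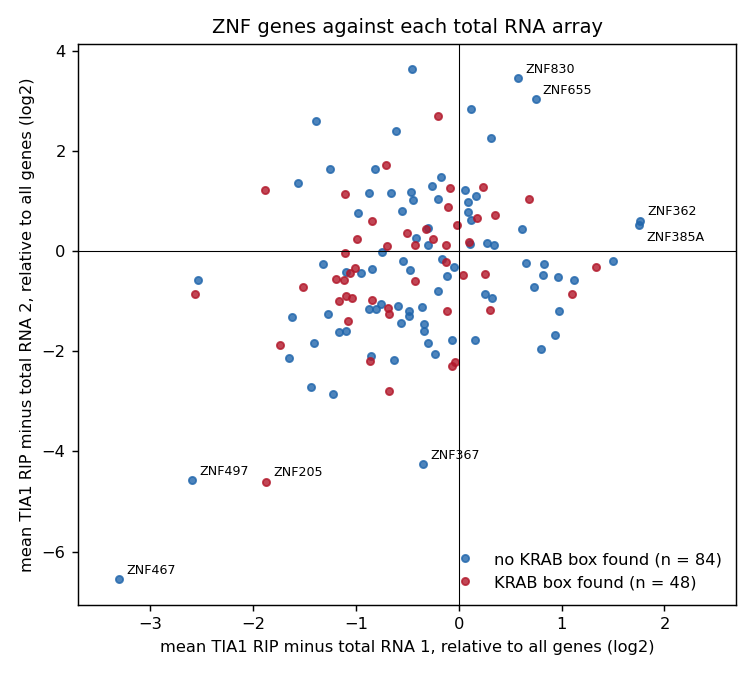
Log2 ratio of the TIA1 RIP mean to total RNA 1 (x axis) and to total RNA 2 (y axis), each relative to the median of all mRNA genes, a point per ZNF gene, coloured by whether a KRAB box was found (48 genes) or not (84 genes). The axes share the TIA1 RIP arrays; ZNF467 lies lowest on both, and ZNF367 is low on the y axis alone.

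Of 16 ZNF genes listed for a described role, 8 were detected on all 4 arrays, and none passed the test. ZNF207, which binds BUB3 at the kinetochore, had 3.12 and 2.40 against 2.60 and 0.67, and relative to all genes lay at 0.12 against total RNA 1 and 2.83 against total RNA 2. ZNF217, an oncogene amplified in carcinomas, had -0.38 and 1.20 against 0.31 and -0.07, with overlapping groups. ZNF598, a ubiquitin ligase that acts on collided ribosomes, had 1.52 and 0.23 against 1.37 and 1.82.

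ZNF326, a subunit of a complex that links transcript elongation and splicing, had 0.99 and 0.30 against 1.26 and 0.22. ZNF451, a SUMO ligase, had -0.52 and -1.23 against 0.40 and 0.13. ZNF622, a ribosome biogenesis factor, had 2.76 and 2.18 against 3.40 and 2.45. Of these 3, only ZNF451 had groups that did not overlap, and relative to all genes it lay at -1.32 against total RNA 1 and -0.26 against total RNA 2. ZNF326 was read from 1 of 3 mRNA probes and ZNF451 from 1 of 2. With all averaged and no detection filter, their ratios on the means moved from 0.212 to 1.05 and from -0.838 to 0.325. ZNF24 and ZNF593 are given above. ZNF143, ZNF148, ZNF281, ZNF274 and ZNF638 were detected on 3 arrays and not on total RNA 2, with differences from total RNA 1 of -0.12, -0.81, 0.01, 0.28 and -1.73. ZNF750 and ZNF93 were detected on 1 array each, and ZNF91 on none.

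By protein features, which were read from 1 translated transcript per gene and not from the arrays, a KRAB box was found in 48 ZNF genes. The letter pattern used to find it was widened in 2 steps after the group medians had been seen, because it had missed boxes in genes such as ZNF155 and ZNF763, and all 3 versions are given. With the widest, the median relative to all genes was -0.40 for the 48 genes with a box and -0.21 for the 84 without. With the second version it was also -0.40 (46 genes) and -0.21 (86 genes), and with the first it was -0.52 (40 genes) and -0.18 (92 genes). The genes with a box were the lower ones in each version, by 0.19 to 0.34, and no test of this difference was made. With the widest version the medians were -0.59 and -0.34 against total RNA 1, and -0.38 and -0.36 against total RNA 2, so the gap was seen against the first total RNA array and was near 0 against the second. Within the widest version, genes with a box on chromosome 19 (n = 29) had a median of -0.43 against total RNA 1 and 0.13 against total RNA 2, and those elsewhere (n = 19) had -0.68 and -0.89. Genes without a box on chromosome 19 (n = 20) had -0.32 and -1.25, so the order of both chromosome 19 groups turned with the total RNA array. In the order given, the median GC content of the transcripts in these groups was 45.3%, 52.4% and 65.2%. The part of this difference in the medians was not tested. By location alone, the medians were -0.34 on chromosome 19 and -0.45 elsewhere against total RNA 1, -0.33 and -0.41 against total RNA 2, and in the reverse order, -0.41 and -0.22, on the means, so no order by location held.

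The median was lower in genes with more fingers, in bins that were also set with the values known. It was 0.13 for the 16 genes with 0 to 2 fingers, -0.35 for the 64 with 3 to 9 and -0.49 for the 52 with 10 or more on the means. In the same order it was 0.19, -0.34 and -0.68 against total RNA 1, and -0.04, -0.40 and -0.45 against total RNA 2. Of the 52 genes with 10 or more fingers, 25 (48.1%) lay below all genes in all 4 pairs and 1 (1.92%) above. The shares were 37.9% and 8.33% of all 132 ZNF genes, and 22.4% and 22.1% of all genes. Genes with a KRAB box had a median of 10.5 fingers, against 5.5 in those without, and the 2 features were not separated. Without bins, Spearman's rho between finger number and the ratio over the 132 genes was -0.30 against total RNA 1 and -0.14 against total RNA 2, a weak relation across genes that share the same TIA1 RIP arrays.

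**Figure D4:**
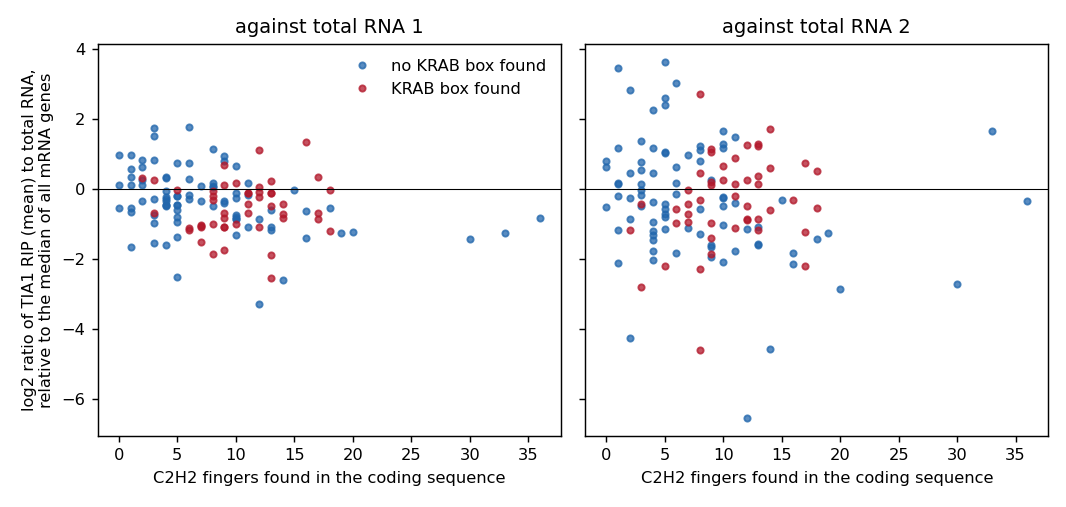
Log2 ratio of the TIA1 RIP mean to each total RNA array relative to the median of all mRNA genes (y axis) by the number of C2H2 fingers found (x axis), a point per ZNF gene, coloured by KRAB box. Spearman's rho is -0.30 on the left and -0.14 on the right, and no slope was fitted.

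The fingers are joined by a short conserved linker, and 72 of the ZNF genes (54.5%) encoded its commonest form, against 1.32% of all detected genes. The 18 bases that encode it are shown for 4 of the genes named above, to print the element that many of these genes have in common; their likeness follows from the shared linker by which they were chosen. The coordinates are GRCh37.
ZNF24, chr18:32917385-32917402 (-): cacactggagaaaaacct
ZNF317, chr19:9271051-9271068 (+): cacaccggggagaagcct
ZNF497, chr19:58868603-58868620 (-): cacacaggcgagaagccg
ZNF865, chr19:56126098-56126115 (+): cacacgggcgagaagccc

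Only the first such linker of each gene was read, and genes on chromosome 8 were left out. Among 64 genes in which it was an unbroken run in the genome, 43 distinct versions were read. The commonest, that of ZNF865, was the first linker of 5 genes. Levels of near-identical family members could share signal on a hybridization array, and this was not tested.

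Base composition moved with the ratio against 1 of the total RNA arrays. Spearman's rho between the GC content of the transcript and the ratio was 0.09 against total RNA 1 and -0.53 against total RNA 2 over the ZNF genes, and -0.07 and -0.67 over 8244 genes. In the 44 ZNF genes with the lowest GC content the median relative to all genes was -0.40 against total RNA 1 and 0.66 against total RNA 2. Genes of the same GC range had 0.09 and 1.54. In the 44 with the highest the ZNF medians were -0.30 and -1.18, and those of genes of the same range -0.04 and -1.17. Against total RNA 1 the ZNF genes were the lower ones in each of 3 GC groups, and against total RNA 2 the group of highest GC content was level with its range. The part of GC content in the ratios was not tested.

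**Figure D5:**
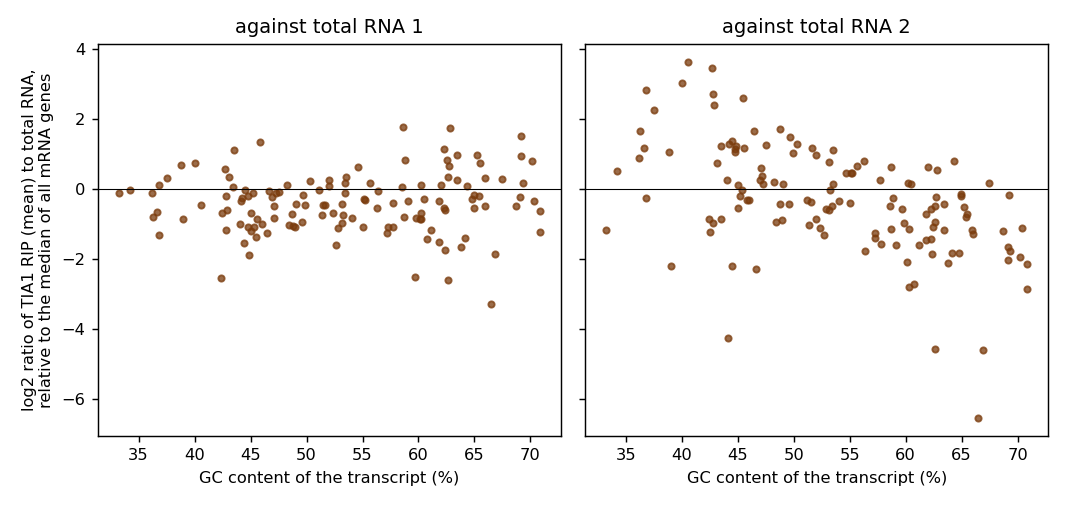
Log2 ratio of the TIA1 RIP mean to each total RNA array relative to the median of all mRNA genes (y axis) by GC content of the transcript in percent (x axis), a point per ZNF gene. The points fall with GC content against total RNA 2 (rho -0.53) and not against total RNA 1 (rho 0.09).

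The partners of KRAB proteins were read from a list of 16 co-repressor genes, of which 12 were detected on all 4 arrays and 0 passed the test. Their median was -0.39 against total RNA 1 and 1.15 against total RNA 2. TRIM28, the scaffold bound by KRAB boxes, had 3.28 and 2.61 against 3.85 and 4.84, with TIA1 RIP below total RNA on each array. SETDB1 had 1.0 and 1.41 against 1.20 and 1.22, with overlapping groups. Relative to all genes, the heterochromatin proteins CBX1, CBX3 and CBX5 lay at 0.66, -0.60 and 0.03 against total RNA 1 and at 2.23, 3.42 and 2.28 against total RNA 2. The deacetylases HDAC1 and HDAC2 lay at 0.19 and 0.28, and at 1.56 and 3.39. HDAC2, CBX3 and PPHLN1 were each read from 1 of 2 mRNA probes. With both averaged and no detection filter, their ratios on the means moved from 1.79 to 0.471, from 1.36 to 0.705 and from 0.655 to 0.229. CHD3 and UHRF1 were below all genes against both arrays, at -0.68 and -1.05 against total RNA 1 and -0.55 and -0.33 against total RNA 2. The direction turned with the total RNA array for CBX3, for SETDB1 (-0.03 and 0.73), for CHD4 (-1.19 and 0.56), for the DNA methyltransferase DNMT1 (-1.84 and 0.19) and for PPHLN1 (-0.19 and 1.58). ATF7IP, MPHOSPH8, TASOR and MORC2 were not detected on all 4 arrays. Of the families most like the ZNF genes, 16 ZBTB genes had a median of -0.26 against total RNA 1 and -0.48 against total RNA 2, with no test. The 9 ZFP genes had 0.01 and 1.33, so that they stood above all genes against the dim second array and level with them against the first. The 9 KLF genes had 0.26 and -0.28, the 2 ZSCAN genes 0.14 and -0.65, and the 1 ZKSCAN gene -0.62 and -0.64.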

How the data were processed

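RNA from anti-TIA1 immunoprecipitates and total RNA were measured on Agilent human gene expression arrays with 1 dye. The authors deposited scanner output of Agilent Feature Extraction (version 10.7, per the submitters' processing notes), in which the processed signal is an intensity per spot, with background subtracted, and other columns hold 0/1 flags. The study's methods name GeneSpring and a normalization to constitutive mRNA levels, with enrichment compared with GAPDH; they do not give how the arrays were scaled to each other or a statistical test for this step. The ZNF genes and all lists were chosen with earlier results of these data known. Flagged outlier spots (299 to 382 of 58717 per array) and control spots were left out, and no spot was saturated. Log2 intensity was scaled to the 75th percentile of each array, spots of a probe and then detected probes of a gene were averaged, and limma 3.58.1 (R 4.3.3) was fitted to all 8307 genes after a check on simulated data. All 4 arrays were on 1 slide and in 1 scan. Accessions were named from a RefSeq table (24546 of 25219 mRNA probes, 97.3%), used for names alone. Sequences and coordinates came from the GENCODE 44 annotation on GRCh37, the build in the file headers. Proteins were translated from that annotation in place of RefSeq proteins, which were not used here. C2H2 fingers and KRAB boxes are letter patterns, which miss divergent copies. The KRAB pattern was widened after group values were seen, and the finger bins were set with values known. Genes named are the 8 highest and 8 lowest among those on 1 side of the median of all genes in all 4 pairs of arrays, the role and co-repressor lists, and GAPDH. The 13 genes past 2.5-fold in all 4 pairs were named after their values were seen. The IgG immunoprecipitates and RIP-seq were not analysed here. Alternatives were normexp background correction, quantile, E1A spike-in and GAPDH scaling, other detection filters, probe choice, folds and references, a replicate block, each array left out and, added after seeing the data, probes of any accession and the KRAB patterns.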

Additional observations from a re-analysis of the deposited data

How the results depend on the processing

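The low median of the ZNF genes kept its sign in every alternative run. It was -0.00807 when genes detected on both arrays of either group were used and -0.044 with no detection filter. Both settings bring in total RNA 2 values that were not well above background. They therefore cannot show whether the shift was confined to genes detected on all 4 arrays. Against total RNA 1, ZNF probes detected on every array but total RNA 2 had a median log2 difference of -0.31. That of all mRNA probes of that kind was 0.06. Without single arrays the ZNF median ranged from -0.419 to -0.311. The count past 2.5-fold over GAPDH was 74 of 132 (56.1%). It became 48 with normexp, 8 with quantile normalization, 4 with the median of all genes as the reference and 30 at 4-fold. It was 220 of 284 genes (77.5%) with the looser filter and 291 of 482 (60.4%) with none. Without single arrays it ranged from 27 (without total RNA 2) to 89 (without total RNA 1). The count above all genes in every pair was 11 of 132 (8.33%). It was 31 of 284 (10.9%) with the looser filter and 27 of 482 (5.6%) with none, and 20 to 44 without single arrays. The count below was 50 of 132 (37.9%). With the looser filter it was 64 of 284 (22.5%) and with none 83 of 482 (17.2%). Without single arrays the count below was 60 to 78. Fewer pairs are counted when an array is left out. In the main setting the shares of all genes were 65.8% past 2.5-fold, 22.1% above and 22.4% below. The share of all genes is not given beside the alternative counts. Those counts describe the ZNF genes alone and do not show whether the ZNF genes differed from all genes in those settings.

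The count of ZNF genes called by limma was 0 and became 17 (12.9%, against 31.4% of all genes) with E1A scaling, which moves the median of all genes from -0.306 to 3.56, and 0 to 22 without single arrays, the 22 (16.7%, against 15.7% of all genes) without total RNA 1, where the lone total RNA array is assumed to vary like the other group. With the replicate number as a block it was 4 (ZNF205, ZNF367, ZNF467 and ZNF497), or 3.03% against 2.46% of all genes, with 21 ZNF genes lower and 2 higher at an unadjusted p under 0.05. Same-numbered arrays deviated together (r = 0.53), but with 2 pairs this does not show that the numbers pair the samples. A slide or scan block could not be fitted, as there was 1 of each. The median difference between genes with and without a KRAB box was -0.187 with the widest pattern and -0.343 with the first.

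Of 420 values for 35 named genes, 375 kept direction and call, 30 passed the threshold and 15 turned sign. ZNF326 was -0.0273 with normexp, ZNF451 0.325 with no filter and SETDB1 -0.362 with the brightest probe. Without single arrays, the ranges that crossed 0 were -0.657 to 1.17 for ZNF326, -0.189 to 1.35 for ZNF217, -1.1 to 0.23 for ZNF598, -0.982 to 0.767 for ZNF622, -1.53 to 0.0285 for UHRF1, -1.19 to 0.564 for CHD4, -1.84 to 0.191 for DNMT1, -0.0347 to 0.732 for SETDB1, -0.601 to 3.42 for CBX3, -0.185 to 1.58 for PPHLN1. The cause was not tested. The dim second total RNA array limits which ZNF genes could be measured.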
